A study of Mus musculus with 12 samples.

Results

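The interferon-stimulated genes described here are 39 genes taken by their symbols from a count table of 33100 gene rows. All 39 symbols had a row, and all 39 passed the filter on low counts, which kept 16831 genes for testing. RNA was measured by bulk RNA sequencing in mouse natural killer (NK) cells, as the labels call them, with 3 libraries in each of 4 groups. The groups were tumor-infiltrating cells of conditional knockout (cKO) mice, in which 1 gene is deleted, tumor-infiltrating cells of control (WT) mice, spleen cells of cKO mice and spleen cells of WT mice. The Cre driver, the tumor line, the strain, the age of the mice and the sort markers were not given in the sources used here. Whether libraries of 1 group stem from different animals is not labelled, so each p-value measures only the spread between these samples.

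Interferons are cytokines that cells release when they sense foreign nucleic acids or, for interferon gamma, when NK and T cells are activated. Type I interferons bind the receptor IFNAR, whose kinases JAK1 and TYK2 phosphorylate STAT2. STAT2 acts with IRF9 in the complex ISGF3, which binds the interferon-stimulated response element (ISRE) in the promoters of its target genes. Interferon gamma signals through JAK1 and JAK2, and many of its target genes carry a gamma-activated site (GAS). The products of the target genes block viral RNA, trap virions, sense nucleic acids and feed back on the pathway itself. NK cells both make interferon gamma and respond to type I interferon, and macrophages, T cells and B cells respond to type I interferon as well.

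The tumor libraries held 15765906 to 24832976 counts in cKO and 18518070 to 37118494 in WT, and the spleen libraries 9542329 to 13753737 in cKO and 10496256 to 13105059 in WT. Levels are CPM, counts relative to library totals that were scaled for composition. Marker lists were checked against the label. The 16 NK cell markers summed to 132 to 367 CPM in the 6 tumor libraries and to 1585 to 2071 CPM in the 6 spleen libraries. The 18 markers of macrophages and monocytes summed to 4906, 4356 and 1730.2 CPM in tumor cKO replicates 1, 2 and 3, against 15093, 30727 and 20357 CPM in tumor WT. No macrophage marker was at 0 in any tumor library. The 12 B cell markers summed to 14.6 to 74.5 CPM in tumor and 2796 to 3577 CPM in spleen. In tumor cKO against WT, 16 of the 18 macrophage markers fell and 0 rose, 11 of 16 NK markers fell and 1 rose, and 8 of 15 T cell markers rose and 0 fell. Of all genes, 21.6% fell and 16.4% rose, where a rise or fall means an adjusted p under 0.05 by edgeR. Markers of cell types that the label does not name were thus present, and fewer cells of a type and less RNA per cell cannot be told apart in bulk samples. Tumor WT replicate 2 stood apart with the highest macrophage sum and with fibroblast markers at 1649.5 CPM, and tumor cKO replicate 3 had the lowest macrophage sum of the tumor libraries.

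The promoters of the members were searched for the letters of these elements, which the choice of the genes did not use. RefSeq promoters on GRCm38.p6, from 250 bases before to 50 after the start, matched 29 of the 39 members with 34 promoters. No entry was used for Parp14, Mx1, Parp9, Dhx58, Usp18, Zbp1, Rtp4, Oas2, Ifi27l2a and Mx2. The ISRE-like core, the letters GAAA followed by any 2 bases and GAAA again, on either strand, was found in 17 of the 34 member promoters (50%), against 1131 of 32851 promoters in the table (3.44%). The GAS-like letters TTCNNNGAA, which read the same on both strands, were found in 7 of the 34 (20.6%), against 8.3% of all promoters. A match is a description of the letters and not a bound site, and the 2 motifs were allowed to overlap. Below are the promoters of 5 members, among those with the smallest p of their class in tumor, that held the ISRE-like letters, followed by those of Rsad2 and Isg15, which were chosen after their values were seen because they had the largest rises in tumor over spleen. All are printed 5′ to 3′ on the strand of the gene, with ISRE-like matches in capitals. On a match to the opposite strand the capitals read as the reverse complement, TTTC followed by any 2 bases and TTTC again.
Gbp2: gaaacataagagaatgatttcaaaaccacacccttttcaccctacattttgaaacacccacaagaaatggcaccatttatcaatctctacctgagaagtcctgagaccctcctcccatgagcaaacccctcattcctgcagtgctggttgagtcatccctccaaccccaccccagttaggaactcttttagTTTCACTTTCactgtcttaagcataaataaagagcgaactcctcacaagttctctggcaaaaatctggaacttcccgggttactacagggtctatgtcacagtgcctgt
Gbp3: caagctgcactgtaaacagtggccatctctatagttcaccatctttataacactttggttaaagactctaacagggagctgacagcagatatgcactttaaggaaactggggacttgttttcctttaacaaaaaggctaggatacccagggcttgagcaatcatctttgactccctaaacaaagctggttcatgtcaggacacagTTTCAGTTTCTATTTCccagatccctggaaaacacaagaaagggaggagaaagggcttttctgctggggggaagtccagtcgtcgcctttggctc
Stat2: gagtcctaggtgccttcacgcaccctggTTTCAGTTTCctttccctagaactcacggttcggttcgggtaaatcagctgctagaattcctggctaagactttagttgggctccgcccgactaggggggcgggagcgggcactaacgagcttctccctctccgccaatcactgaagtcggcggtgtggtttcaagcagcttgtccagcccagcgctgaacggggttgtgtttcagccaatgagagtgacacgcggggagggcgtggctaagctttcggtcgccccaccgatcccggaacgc
Oas1a: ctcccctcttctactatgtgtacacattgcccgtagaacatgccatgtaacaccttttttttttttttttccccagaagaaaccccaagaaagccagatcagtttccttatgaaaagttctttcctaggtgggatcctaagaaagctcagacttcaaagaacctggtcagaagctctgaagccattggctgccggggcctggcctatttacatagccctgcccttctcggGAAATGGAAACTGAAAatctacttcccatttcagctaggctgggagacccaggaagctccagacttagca
Ifit3: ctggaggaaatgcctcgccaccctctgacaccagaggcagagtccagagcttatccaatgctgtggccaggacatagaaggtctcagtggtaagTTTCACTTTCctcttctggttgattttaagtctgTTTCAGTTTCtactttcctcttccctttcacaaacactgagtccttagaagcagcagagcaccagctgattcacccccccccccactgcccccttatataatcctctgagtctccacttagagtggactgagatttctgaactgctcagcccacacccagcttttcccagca
Rsad2: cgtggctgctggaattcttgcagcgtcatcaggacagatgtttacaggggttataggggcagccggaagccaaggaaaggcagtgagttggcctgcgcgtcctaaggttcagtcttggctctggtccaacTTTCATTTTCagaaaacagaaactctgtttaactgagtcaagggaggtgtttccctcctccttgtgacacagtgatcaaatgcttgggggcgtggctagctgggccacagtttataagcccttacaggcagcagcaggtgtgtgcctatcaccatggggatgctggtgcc
Isg15: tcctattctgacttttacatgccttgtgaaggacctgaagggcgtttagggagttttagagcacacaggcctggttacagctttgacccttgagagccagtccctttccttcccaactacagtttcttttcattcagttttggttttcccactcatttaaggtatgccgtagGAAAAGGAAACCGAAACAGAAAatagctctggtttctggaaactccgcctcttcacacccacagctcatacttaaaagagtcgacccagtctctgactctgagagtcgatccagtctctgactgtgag
These windows lie at chr3:142620413-142620712, plus strand, for Gbp2, at chr3:142559794-142560093, plus strand, for Gbp3 and at chr10:128270248-128270547, plus strand, for Stat2. That of Oas1a lies at chr5:120907476-120907775, minus strand, and that of Ifit3 at chr19:34583279-34583578, plus strand. Those of Rsad2 and Isg15 lie at chr12:26456403-26456702, minus strand, and at chr4:156200769-156201068, minus strand. The Isg15 window held 3 matches that ran into each other, and the Oas1a and Gbp3 windows held 2 each that did so. Ifit3 held 2 matches that stood apart. Gbp2, Stat2 and Rsad2 held 1 match each. Each of the 4 IFIT genes has an entry, and the letters were found in the windows of Ifit1, Ifit3 and Ifit3b.

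Per length of transcript, the deposited RPKM values put different members on top in the 2 tissues. In tumor the highest was Isg15, a ubiquitin-like protein that is joined to other proteins during an interferon response, with a mean level of 85.8 ± 35.3 RPKM in cKO and 86.2 ± 25.4 RPKM in WT (SD, n = 3 each). In spleen it was Gbp3, a guanylate-binding GTPase, with 114 ± 3.04 RPKM in cKO and 112 ± 4.8 RPKM in WT, followed by Samd9l, an antiviral restriction factor, with 93.9 ± 1.84 RPKM in cKO and 98.3 ± 13.4 RPKM in WT. The lowest in each group was Ifi44, at mean levels of 0.127 to 0.196 RPKM. The 39 members summed to 1573 ± 413 CPM in tumor cKO and 1915 ± 283 CPM in tumor WT, and to 2521 ± 243 CPM in spleen cKO and 2249 ± 181 CPM in spleen WT. The sums overlapped between genotypes in both tissues.

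**Figure D1:**
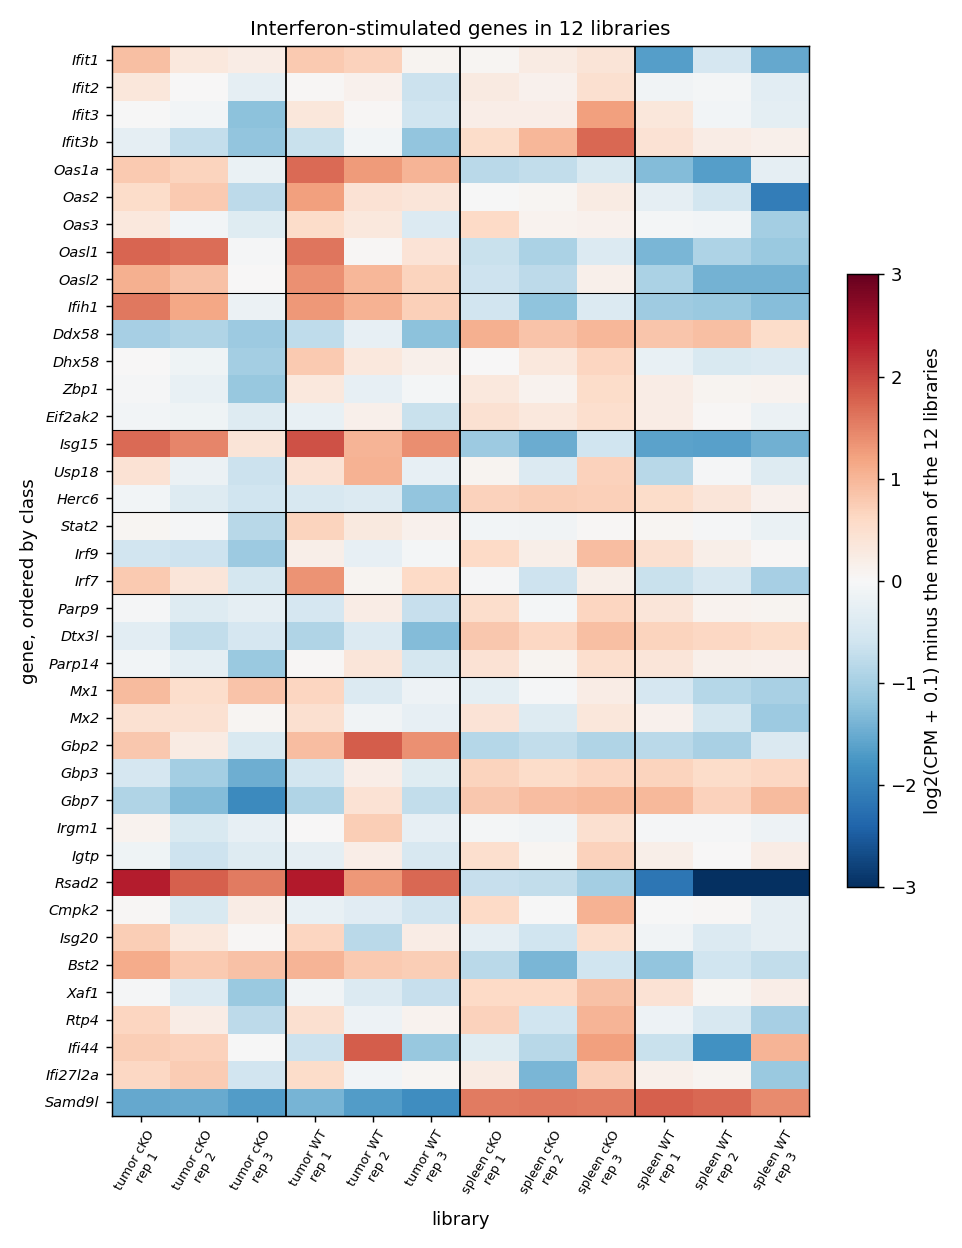
Heat map of the 39 members (rows, by class) in the 12 libraries (columns), as log2(CPM + 0.1) minus the mean of the member over the 12 libraries, on a colour scale from −3 to 3. Rsad2 and Isg15 are high in tumor and Samd9l and Ddx58 in spleen, and tumor cKO replicate 3 is the lowest of its group for 32 of the 39 members.

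Within a group the members tended to be high or low in the same libraries. Tumor cKO replicate 1 had the highest CPM of its group for 33 of 39 members and replicate 3 the lowest for 32. In tumor WT, replicate 1 was highest for 24 members and replicate 2 for 15, and replicate 3 was lowest for 26. Spleen cKO replicate 3 was highest for 31 and replicate 2 lowest for 27, and spleen WT replicate 1 was highest for 26 and replicate 3 lowest for 23. The summed level of the members in tumor was 1965, 1612 and 1142 CPM in cKO replicates 1, 2 and 3 and 2079, 2079 and 1588 CPM in WT. In spleen it was 2522, 2277 and 2763 CPM in cKO and 2437, 2234 and 2076 CPM in WT. Members are thus not independent readings of a condition, because a library that is high for 1 member is often high for others.

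**Figure D2:**
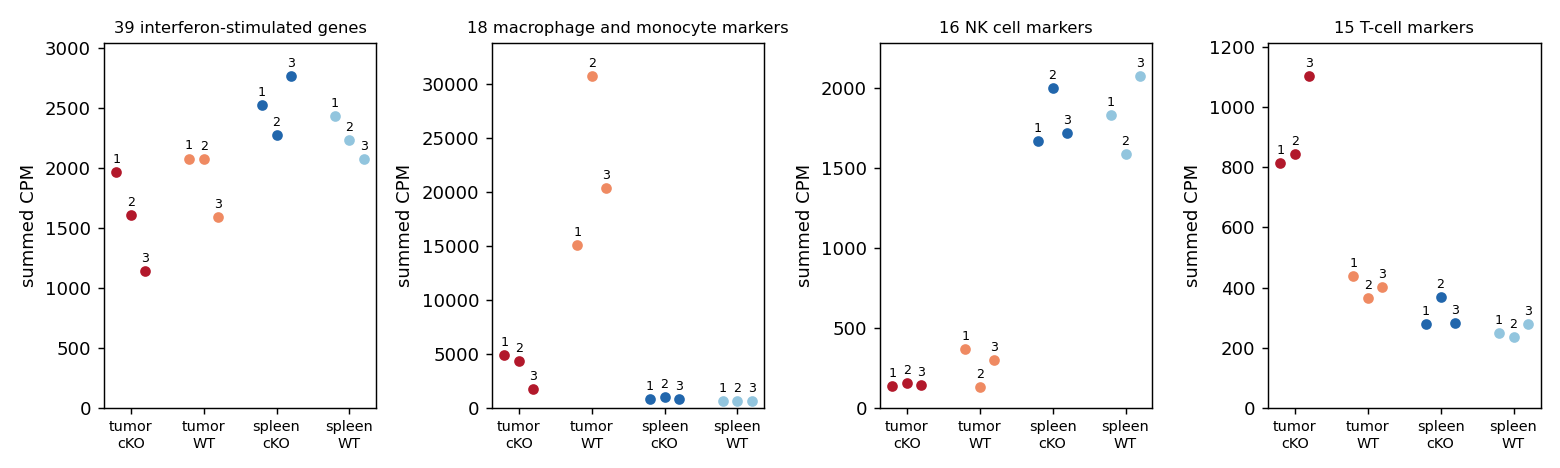
Summed CPM of the 39 members and of the macrophage, NK cell and T cell markers in each of the 12 libraries (points, numbered by replicate), by group, with cKO left of WT in each tissue. The member sums of the genotypes overlap, while the macrophage sums of tumor cKO lie below those of tumor WT.

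Setting cKO against WT samples from tumor asks what the loss of the gene does to the interferon-stimulated genes of tumor-infiltrating cells. The guanylate-binding protein genes Gbp2, Gbp3 and Gbp7, the ISGF3 genes Irf9 and Stat2 and the sensor gene Dhx58 were lower in cKO, and the GTPase gene Mx1 was higher. A gene was taken to rise or fall where its adjusted p from edgeR's quasi-likelihood test, by Benjamini-Hochberg over all 16831 genes, was under 0.05. Of the 39 members, 6 fell and 1 rose (15.4% and 2.56%), against 21.6% of all genes that fell and 16.4% that rose, or 38.0% changed in either direction. The median log2 change was −0.18 over the members and −0.12 over all genes. Both shares of the members lay below those of all genes. Groups did not overlap, with cKO lower, for 5 members (12.8%), against 27.3% of all genes.

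Among the transcription factors, 2 of 3 fell. Irf9 (GRCm38 chromosome 14, 55603571 to 55610030), which gives ISGF3 its DNA contact, had 44.7, 43.2 and 30.9 CPM in tumor cKO replicates 1, 2 and 3, against 75.1, 56.1 and 63.4 CPM in tumor WT. Every cKO library lay below every WT library, and the log2 change was −0.71 ± 0.20 (SE, adjusted p = 0.0153). Stat2 was at 61.7, 58.4 and 33.6 CPM in cKO and 95.6, 73.3 and 65.6 CPM in WT. Its groups also did not overlap, by the narrow margin between cKO replicate 1 and WT replicate 3 (log2 −0.61 ± 0.20, adjusted p = 0.0318). Irf7, the factor that amplifies type I interferon production, differed by −0.46 ± 0.36 and did not pass (adjusted p = 0.34). The annotated exons of Irf9 share 123 bases with those of Rnf31 on the same strand, so some of its reads could belong to that gene.

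Of the 7 interferon-induced GTPases, 3 fell and 1 rose. Gbp2, a guanylate-binding protein that attacks the vacuoles of intracellular pathogens, had 136, 92 and 56.3 CPM in tumor cKO and 148, 273 and 201 CPM in tumor WT. The groups did not overlap, cKO replicate 3 was the lowest and WT replicate 2 the highest, and the log2 change of −1.13 ± 0.29 was the largest fall of the 39 (adjusted p = 0.00912). Gbp3 was at 166, 116 and 85.2 CPM in cKO and 161, 269 and 182 CPM in WT. Its cKO replicate 1 lay above WT replicate 1, so the groups overlapped, and it fell by 0.73 on the log2 scale (SE 0.22, adjusted p = 0.0199). Gbp7 (log2 −1.04 ± 0.33, adjusted p = 0.0253) and Mx1 (log2 0.69 ± 0.24, adjusted p = 0.039) were named after their values were seen, because they passed. Gbp7 had 35.1, 26.4 and 17.4 CPM in cKO and 34.8, 87.9 and 39.1 CPM in WT, where replicate 2 stood far above the others. Mx1 (GRCm38 chromosome 16, 97447035 to 97462907), whose product forms rings around viral nucleocapsids, was at 101, 74.7 and 94 CPM in cKO and 80.8, 39.4 and 47.2 CPM in WT, and cKO replicate 2 lay below WT replicate 1. Mx2, Irgm1 and Igtp did not pass. The guanylate-binding protein genes are close copies of each other, so how the counting split reads among them is uncertain, and 637 exonic bases of Gbp7 are shared with Gm43802. Within each tumor genotype, Gbp2, Gbp3 and Gbp7 each ranked the 3 libraries in the order of the macrophage sums. In cKO this order was not particular to them, as replicate 1 was highest for 33 of 39 members and replicate 3 lowest for 32. The part of macrophages and other cells in the changes was not tested.

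Among the 5 sensor genes, 1 fell. Dhx58 (GRCm38 chromosome 11, 100694884 to 100704271), which encodes LGP2, a helper of the sensor MDA5, had 16.8, 15.4 and 8.21 CPM in tumor cKO and 28.8, 21.1 and 18.6 CPM in tumor WT. The highest cKO library lay below the lowest WT library (log2 −0.76 ± 0.27, adjusted p = 0.0378), and 141 of its exonic bases are shared with the antisense gene Dhx58os. Zbp1, a sensor of Z-form nucleic acids that can start cell death, was at 57, 49.9 and 26.5 CPM in cKO and 73.7, 49.8 and 56.5 CPM in WT, with overlapping groups (log2 −0.43 ± 0.24, adjusted p = 0.171). Ifih1, which encodes MDA5, Ddx58, which encodes RIG-I, and Eif2ak2, which encodes the kinase PKR, had log2 differences of −0.01, −0.31 and 0.01 and did not pass.

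By edgeR 0 of the 5 OAS genes passed in tumor and 1, Oas1a, had an unadjusted p under 0.05. Oas1a, which makes the messenger that activates RNase L, had 23.8, 22.1 and 11.9 CPM in cKO and 44.9, 33.4 and 28.1 CPM in WT. Its groups did not overlap, and its p lay just above the threshold (log2 −0.88 ± 0.34, adjusted p = 0.0549). It passed in 5 of 23 alternative settings, and its adjusted p in the others reached 0.212. Among the 5 were DESeq2 (adjusted p = 0.0377), and edgeR with a replicate block (0.0174) or without a filter on low counts (0.00271). The annotation holds close copies of Oas1a, so its reads are uncertain in the same way. Oasl1, an OAS-like protein without that enzyme activity, was at 123, 118 and 35.8 CPM in cKO and 111, 37.2 and 48.6 CPM in WT, where replicate 1 alone came near the 2 highest cKO libraries (log2 0.50 ± 0.46, adjusted p = 0.429, or 0.0378 without a filter).

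By edgeR 0 of the 4 IFIT genes passed in tumor, and 0 had an unadjusted p under 0.05. These genes encode proteins that bind foreign RNA, and their log2 differences ran from −0.32 to 0.18. Ifit3 had 30.7, 28.9 and 13.1 CPM in cKO and 39, 31.3 and 20.3 CPM in WT (log2 −0.32 ± 0.37, adjusted p = 0.526). Ifit2 had 29.4, 23.5 and 19.4 CPM in cKO and 23.7, 25.4 and 14.7 CPM in WT (log2 0.18 ± 0.22, adjusted p = 0.544). In both genes the libraries of the genotypes were intermingled. Ifit3 and Ifit3b are near copies, so their split is uncertain.

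The ISG15 system, the PARP9-DTX3L and PARP14 genes and the other antiviral effectors likewise had 0 members that passed in tumor by edgeR, and 0 with an unadjusted p under 0.05. Usp18, the protease that removes ISG15 and dampens receptor signalling, was at 12.2, 8.06 and 5.77 CPM in cKO and 12.3, 18.9 and 7.59 CPM in WT (log2 −0.58 ± 0.38, adjusted p = 0.249). Herc6, a ligase that attaches ISG15 in mice, was at 54.1, 43.4 and 37.5 CPM in cKO and 40.6, 42.9 and 24.8 CPM in WT (log2 0.32 ± 0.20, adjusted p = 0.226). Both pairs of groups overlapped, and 1269 exonic bases of Herc6 are shared with Gm45193. Parp14, a mono-ADP-ribosyltransferase, was at 155, 133 and 75.4 CPM in cKO and 169, 210.0 and 113 CPM in WT (log2 −0.44 ± 0.26, adjusted p = 0.201), and passed with a replicate block (0.041) or without a filter (0.0428). Dtx3l, the ubiquitin ligase partner of PARP9, was at 57.3, 42.9 and 50.4 CPM in cKO and 38.1, 53.2 and 28.9 CPM in WT (log2 0.32 ± 0.19, adjusted p = 0.19). In these pairs too the genotypes overlapped, and Dtx3l shares 458 exonic bases with Parp9 on the opposite strand. Cmpk2, a mitochondrial nucleotide kinase, was at 10.5, 7.45 and 12.1 CPM in cKO and 8.78, 8.1 and 6.93 CPM in WT (log2 0.34 ± 0.27, adjusted p = 0.343). Isg20, an exonuclease, was at 22.5, 16.6 and 13.6 CPM in cKO and 20.9, 7.53 and 15.7 CPM in WT (log2 0.26 ± 0.35, adjusted p = 0.59). Neither separated the genotypes.

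Many of the calls in tumor were lost when 1 library was left out or the scaling was changed. Without tumor cKO replicate 3, 1 of the 39 members passed, Gbp2, and the median log2 change was 0.07; without tumor cKO replicate 2 or tumor WT replicate 1, 4 members passed. Without cKO replicate 3 the adjusted p was 0.0669 for Irf9, 0.0998 for Stat2, 0.0697 for Gbp3, 0.0972 for Gbp7, 0.135 for Dhx58 and 0.0989 for Mx1, and the log2 changes of Stat2 and Dhx58 shrank to −0.38 and −0.50. Without WT replicate 1, Irf9 (0.0595), Stat2 (0.133) and Dhx58 (0.149) did not pass, and without WT replicate 2, Gbp3 (0.0821), Gbp7 (0.0942) and Mx1 (0.105) did not. In that last setting the log2 change was −0.48 for Gbp3 and −0.49 for Gbp7, against −0.73 and −1.04 with all libraries. Without cKO replicate 2, Gbp3 (0.0611), Gbp7 (0.0612) and Dhx58 (0.0503) did not pass, although their log2 changes, −0.70, −1.05 and −0.87, were about as large as with all libraries or larger. Mx1 also failed without cKO replicate 1 (0.109) or WT replicate 3 (0.122), and its log2 change was 1.06 without WT replicate 1. Spleen libraries share in the estimate of spread, and Dhx58 failed without spleen WT replicate 2 (0.0501), as did Mx1 without spleen WT replicate 2 (0.052) or spleen cKO replicate 2 (0.0525). Oas1a passed without spleen WT replicate 2 (0.0427) or 3 (0.0221), and Dtx3l without tumor WT replicate 2 (0.0061, log2 0.59). Scaling to library totals alone moved the median of all genes to 0.06 and left 2 calls, the fall of Gbp2 and the rise of Mx1.

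**Figure D3:**
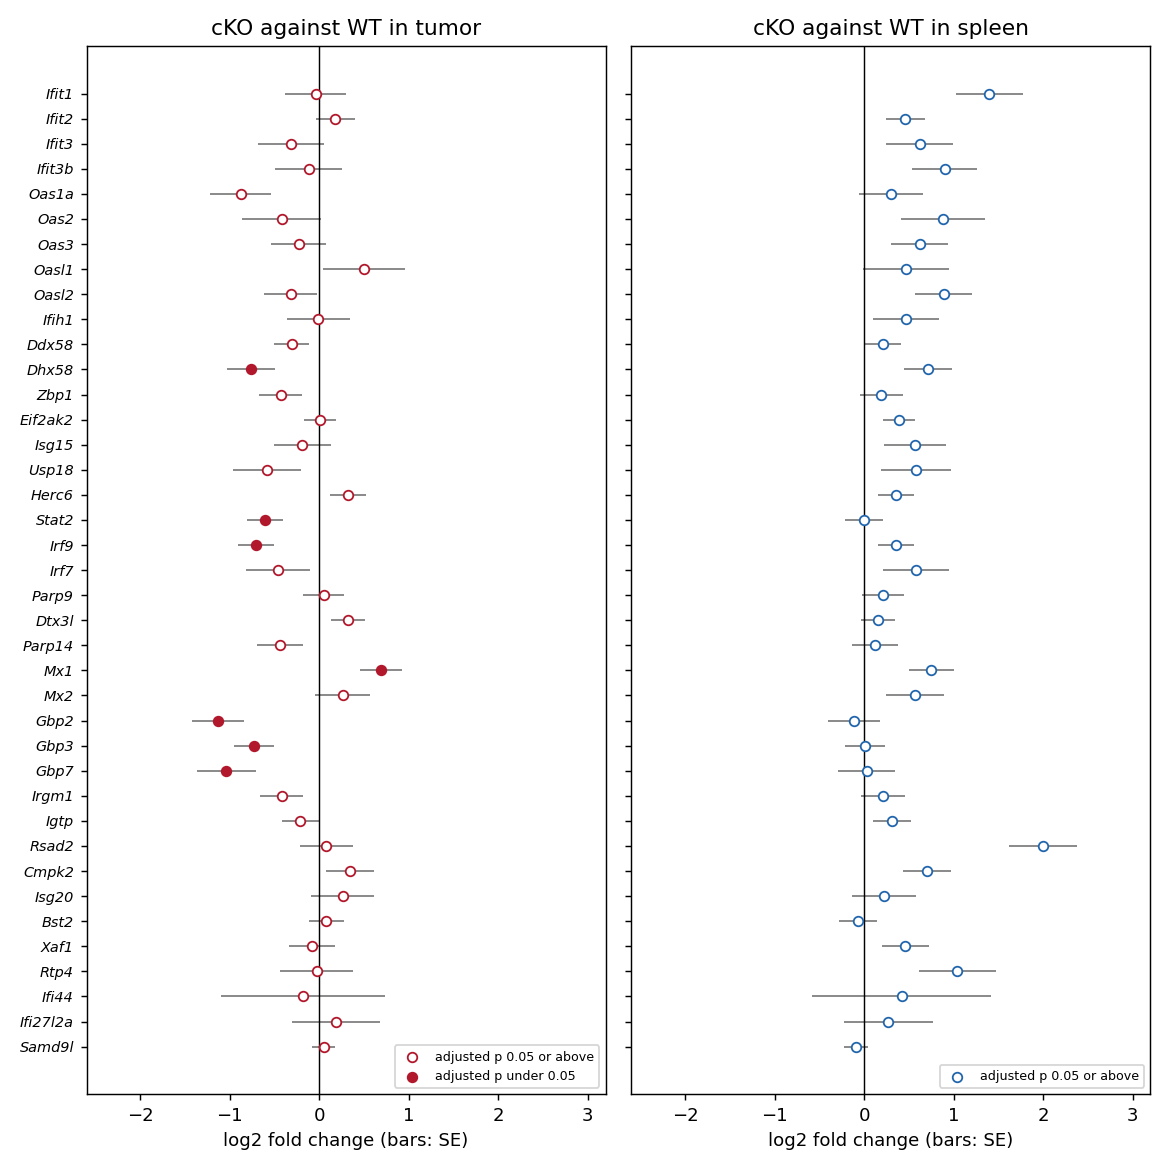
Log2 change of cKO against WT for the 39 members in tumor and in spleen, each with its standard error, and with members that passed marked. In tumor 6 members fell and 1 rose, and in spleen none passed while 36 of 39 values lay above 0.

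In spleen the same question gave no call among the members. By edgeR 0 of 39 passed and 8 had an unadjusted p under 0.05, and DESeq2 called 1. Of all genes, 0.0297% passed (5 of 16831) and 784 had an unadjusted p under 0.05. The 8 members were Rsad2, Ifit1, Mx1, Oasl2, Dhx58, Cmpk2, Ifit3b and Rtp4, and all 8 had higher values in cKO. The log2 differences of 36 of the 39 members were above 0 (92.3%), against 48.8% of all genes, and their median was 0.42, against 0.00 over all genes, or 0.24 without spleen cKO replicate 3. Groups did not overlap, with cKO higher, for 12 members (30.8%), against 5.94% of all genes, and 0 members were free of overlap with cKO lower.

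Rsad2, which encodes the antiviral enzyme viperin, had 7.7, 7.42 and 6.11 CPM in spleen cKO and 2.73, 1.36 and 1.13 CPM in spleen WT. All cKO libraries lay above all WT libraries, and WT replicate 1 was the highest of its group. The WT values rest on 36, 18 and 12 counts in replicates 1, 2 and 3. The log2 difference was 2 ± 0.38, with an adjusted p of 0.217 by edgeR over all 12 libraries. It passed in 4 of the other settings and not in the rest, with adjusted p from 2e-10 without a filter on low counts to 0.744. Leaving out that filter also raised the calls over all genes in spleen from 5 to 230. Ifit1 had 4.7, 5.41 and 5.97 CPM in cKO and 1.37, 3.16 and 1.51 CPM in WT, again without overlap (log2 1.40 ± 0.37, adjusted p = 0.698).

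Mx1 was at 42.8, 51.2 and 60.6 CPM in spleen cKO and 36.7, 28.6 and 26.6 CPM in spleen WT (log2 0.75 ± 0.25, adjusted p = 0.918). It passed with the libraries compared only (adjusted p = 0.0189) and without a filter on low counts (0.0132). Oasl2, an OAS-like gene, was at 12.5, 11.2 and 21.5 CPM in cKO and 10, 7.15 and 7.18 CPM in WT (log2 0.89 ± 0.32, adjusted p = 0.96, or 0.0285 without a filter). In both the highest WT library, replicate 1, lay below the lowest cKO library. Dhx58 was at 16.9, 20.8 and 26.5 CPM in cKO and 14.3, 12.3 and 12.7 CPM in WT (log2 0.71 ± 0.27, adjusted p = 1). Cmpk2 was at 15.6, 10.2 and 21.3 CPM in cKO and 10.2, 10.5 and 8.5 CPM in WT (log2 0.70 ± 0.27, adjusted p = 1). The Dhx58 groups did not overlap, whereas Cmpk2 in cKO replicate 2 lay within the WT range.

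By class, the median log2 difference in spleen was 0.76 for the 4 IFIT genes, 0.62 for the 5 OAS genes, 0.57 for the 3 ISG15 system genes and 0.39 for the 5 sensor genes. It was 0.36 for the 3 transcription factors, 0.42 for the 9 other effectors, 0.21 for the 7 GTPases and 0.15 for the PARP9-DTX3L and PARP14 genes. Gbp2, Bst2 and Samd9l were the 3 members with a value below 0, at −0.11, −0.07 and −0.09. The macrophage markers summed to 801, 1008 and 826 CPM in spleen cKO and 642, 626 and 636 CPM in spleen WT, and the erythroid markers to 33.6, 46 and 37.6 CPM in cKO and 17.9, 30.6 and 13.4 CPM in WT. The T cell markers summed to 280.1, 368 and 281 CPM in cKO and 250, 236 and 278 CPM in WT, and the 5 melanocyte lineage markers with a row to 5.58, 4.81 and 5.9 CPM in cKO and 7.89, 6.63 and 6.99 CPM in WT. None of these 4 sums overlapped between the genotypes, and the first 3 were higher in cKO. By edgeR 0 markers of the 4 lists passed, while 7 of the 18 macrophage and 7 of the 15 T cell markers had an unadjusted p under 0.05, all higher in cKO. The median log2 difference was 1.12 over the macrophage and 0.48 over the T cell markers. Their part in the spleen values was not tested.

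**Figure D4:**
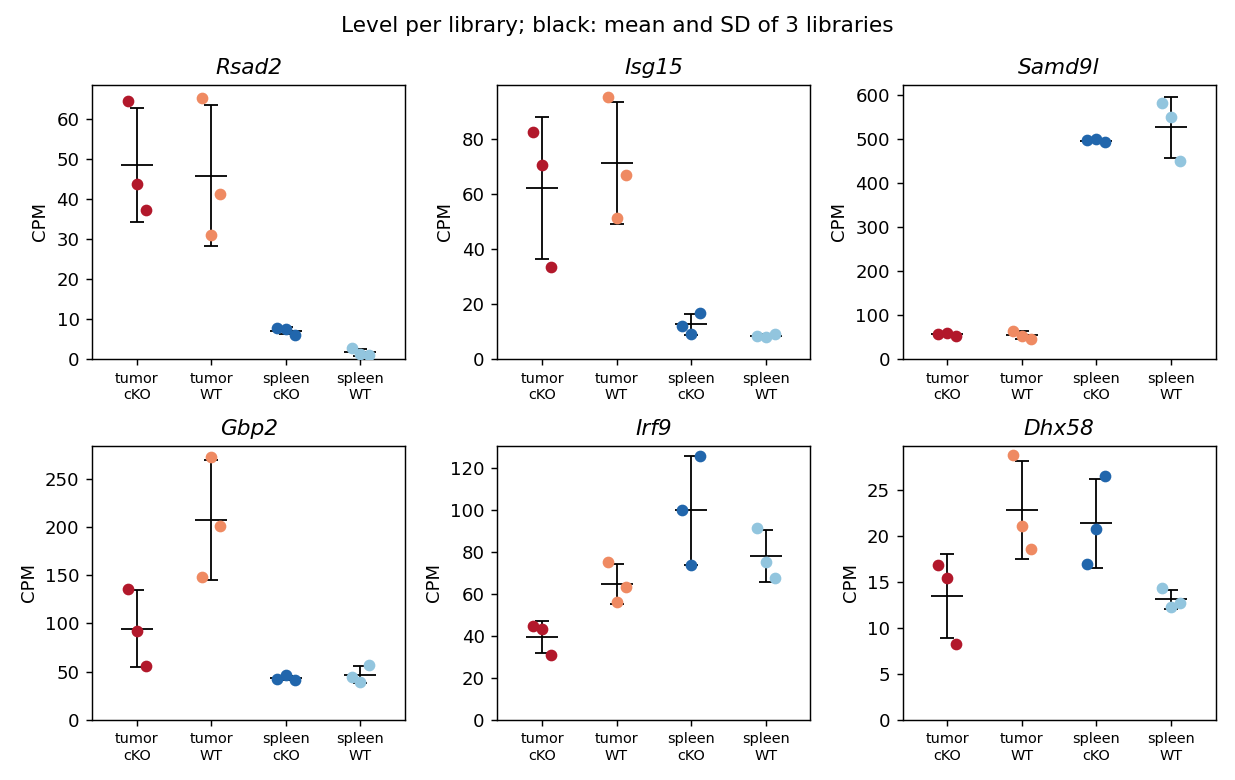
CPM of Rsad2, Isg15, Samd9l, Gbp2, Irf9 and Dhx58 in each of the 12 libraries, by group, with the mean and SD of each group in black. Rsad2 separates the genotypes in spleen and not in tumor, and Gbp2, Irf9 and Dhx58 are lower in tumor cKO than in tumor WT.

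Whether the effect of the knockout differed between tumor and spleen was tested as the difference of the cKO effects, tumor minus spleen. For 3 of 39 members (7.69%) it passed, all with a lower effect in tumor, against 18.3% of all genes that passed in either direction. The median difference was −0.61 over the members and −0.10 over all genes, and 34 of the 39 differences were below 0. For Rsad2 the effect was 0.08 in tumor and 2 in spleen, a difference of −1.92 ± 0.48 (adjusted p = 0.017). With limma-trend it was −0.67 on log2(RPKM + 1) (adjusted p = 0.172), a scale that shrinks changes of low genes, and −1.59 on log2(RPKM + 0.1) without a filter (0.0679), and it passed in neither. In tumor its libraries were intermingled, at 64.7, 43.9 and 37.2 CPM in cKO and 65.4, 31.1 and 41.3 CPM in WT. For Dhx58 the effect was −0.76 in tumor and 0.71 in spleen (difference −1.47 ± 0.38, adjusted p = 0.0184). For Irf9 it was −0.71 in tumor and 0.36 in spleen, where cKO had 100, 74.1 and 126 CPM and WT 91.6, 75.2 and 67.5 CPM (difference −1.07 ± 0.29, adjusted p = 0.0226). Irf9 did not separate the genotypes in spleen. Ifit1, the next by p, differed by −1.44 ± 0.50 and did not pass (adjusted p = 0.0623), with 8.54, 5.65 and 5.34 CPM in tumor cKO and 7.85, 7.39 and 4.82 CPM in tumor WT. Without spleen cKO replicate 3, 1 of the 39 passed, Rsad2, and Dhx58 and Irf9 did not (adjusted p = 0.0517 and 0.0616). Without spleen WT replicate 2, Rsad2 and Irf9 did not pass (adjusted p = 0.0511 and 0.0553), and Irf9 did not without spleen WT replicate 3 (0.0576) or tumor WT replicate 1 (0.0504). Ifit1 passed without spleen WT replicate 2 (0.0226) or tumor cKO replicate 1 (0.0486).

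Tumor and spleen samples of the same genotype were set against each other to ask which members differ between the tissues. In WT, 20 of 39 members passed, against 62.0% of all genes. Of these, 13 rose and 7 fell in tumor (33.3% and 17.9%), against 33.9% and 28.1% of all genes, and the median log2 change was 0.39 over the members and 0.12 over all genes. In cKO, 26 of 39 passed, against 60.5% of all genes, 9 higher and 17 lower (23.1% and 43.6%), against 31.7% and 28.8% of all genes. The median there was −0.32 over the members and 0.07 over all genes. It was −0.11 without tumor cKO replicate 3, −0.13 without spleen cKO replicate 3 and −0.53 without tumor cKO replicate 1, and the median in WT was 0.23 without tumor WT replicate 1. All tissue comparisons set together samples with different cell content, as the marker sums above show, and the part of that content in them was not tested.

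The 3 largest rises in tumor over spleen in WT were those of Rsad2, Isg15 and Oas1a. Rsad2 had 65.4, 31.1 and 41.3 CPM in tumor WT and 2.73, 1.36 and 1.13 CPM in spleen WT (log2 4.70 ± 0.38, adjusted p = 4.69e-07). Isg15 had 95.3, 51.4 and 66.9 CPM in tumor WT and 8.27, 8.13 and 9.26 CPM in spleen WT (log2 3.06 ± 0.35, adjusted p = 1.34e-05). Oas1a had 44.9, 33.4 and 28.1 CPM in tumor WT and 5.54, 4.29 and 11.4 CPM in spleen WT (log2 2.33 ± 0.36, adjusted p = 0.000109). All 3 were free of overlap between the tissues. In cKO the same 3 genes rose by 2.78 ± 0.33, 2.29 ± 0.34 and 1.15 ± 0.35 on the log2 scale, with Rsad2 at 7.7, 7.42 and 6.11 CPM in spleen. Isg15 was at 82.7, 70.6 and 33.3 CPM in tumor cKO and 12, 9.02 and 16.8 CPM in spleen cKO.

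The 3 largest falls in tumor against spleen in WT were those of Samd9l, Ddx58 and Dtx3l. Samd9l (GRCm38 chromosome 6, 3372257 to 3399572) had 63.7, 52.5 and 46 CPM in tumor WT and 580.0, 548 and 448 CPM in spleen WT (log2 −3.28 ± 0.14, adjusted p = 2.88e-09). Ddx58 had 27, 39 and 19.5 CPM in tumor WT and 82.5, 86.5 and 67.3 CPM in spleen WT (log2 −1.46 ± 0.20, adjusted p = 4.25e-05). Dtx3l had 38.1, 53.2 and 28.9 CPM in tumor WT and 114, 109.8 and 105 CPM in spleen WT (log2 −1.45 ± 0.19, adjusted p = 2.32e-05). No tumor library reached the spleen range in any of the 3. In cKO they fell as well, with log2 changes of −3.14 ± 0.14, −1.98 ± 0.21 and −1.28 ± 0.19. There Gbp7 fell more than Ddx58, and Gbp7, Ifit3b (−1.87), Gbp3 and Irf9 (−1.34) fell more than Dtx3l. Samd9l was at 57.3, 58.9 and 52.2 CPM in tumor cKO against 496, 499 and 492 CPM in spleen cKO.

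By role, the OAS genes were mostly higher in tumor, and the RNA helicase sensors Ifih1 and Ddx58 went in opposite directions. Of the 5 OAS genes, 4 rose in WT and 3 in cKO (80% and 60%), against 33.9% and 31.7% of all genes. In neither genotype did any of these 5 fall. Ifih1 rose in both genotypes, by 2.20 ± 0.37 in WT and 1.72 ± 0.37 in cKO, while Ddx58 fell. The guanylate-binding genes were also divided, with Gbp2 higher in tumor (log2 2.15 ± 0.30 in WT, 1.12 ± 0.29 in cKO) and Gbp3 (log2 −0.82 ± 0.22 and −1.56 ± 0.22) and Gbp7 (log2 −1.14 ± 0.32 and −2.22 ± 0.34) lower. Bst2, which encodes tetherin, a tether for budding virions, rose by 1.69 ± 0.21 in WT and 1.83 ± 0.21 in cKO. Dhx58 rose in WT (log2 0.80 ± 0.27, adjusted p = 0.0201) and fell in cKO (log2 −0.67 ± 0.27, adjusted p = 0.0438), the turn that the difference of effects measures. Both of these calls were lost without 1 library, to an adjusted p of 0.0904 in WT without tumor WT replicate 1 and of 0.182 in cKO without spleen cKO replicate 3, and the fall in cKO was −0.41 without tumor cKO replicate 3 (0.153). Of 23 alternative settings, the Dhx58 call in cKO was lost in 14, among them DESeq2 (adjusted p = 0.0516). The call in WT was lost in 6, among them each limma-trend setting. The other members that rose in WT were Oasl2, Oasl1, Oas2, Ifit1, Irf7 and Mx1, and the others that fell were Herc6 and Xaf1. In cKO, Mx1, Oasl1 and Oasl2 rose as well, and Ifit3, Ifit3b, Zbp1, Eif2ak2, Herc6, Irf9, Parp9, Parp14, Igtp, Cmpk2 and Xaf1 fell. Of these, the calls in WT of Oas2 and Xaf1 were lost without 1 library, with adjusted p up to 0.0529 without tumor WT replicate 1 and 0.151 without spleen WT replicate 1. In cKO, without spleen cKO replicate 3, Cmpk2 (0.285), Ifit3 (0.218), Parp9 (0.131), Zbp1 (0.0705) and Parp14 (0.0646) did not pass, and Mx1 did not without spleen cKO replicate 1 (0.054). Over the 23 alternative settings, the call of Cmpk2 in cKO was lost in 18, that of Parp9 in 9 and that of Ifit3 in 8. The call of Xaf1 in WT was lost in 13. The log2 changes of Cmpk2 and Ifit3 in cKO were −0.36 and −0.53 without spleen cKO replicate 3, against −0.65 and −0.97 with all libraries. The rise of Mx1 in WT was 0.50 without tumor WT replicate 1, against 0.86, and the fall of Zbp1 in cKO was −0.47 without tumor cKO replicate 3, against −0.74.

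**Figure D5:**
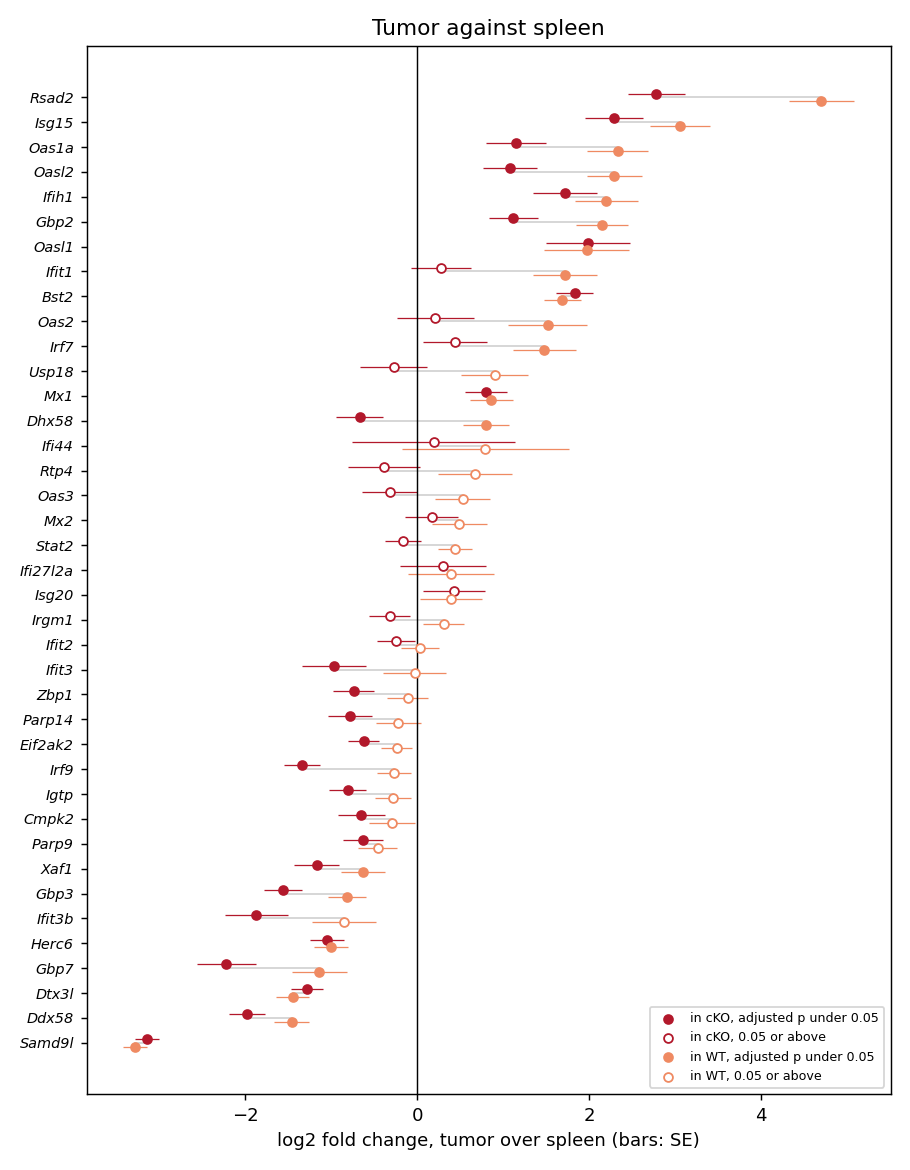
Log2 change of tumor against spleen for the 39 members in cKO and in WT, each with its standard error, and with members that passed marked. Rsad2 and Isg15 lie at the top and Samd9l at the bottom in both genotypes, and the values in cKO are mostly below those in WT.

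The genes that make, receive and control the signal were described from lists that hold no member. Of 21 interferon ligands listed, 8 had a row and 2 passed the filter. Ifnb1, interferon beta, had 36, 26 and 4 counts in tumor cKO and 16, 8 and 2 counts in tumor WT, and 0 counts in each of the 6 spleen libraries. These few reads did not separate the genotypes (log2 1.36 ± 1.05, adjusted p = 0.344), and their relation to the levels of the members was not tested. Ifng, interferon gamma, averaged 3.38 ± 0.218 CPM in tumor cKO and 2.61 ± 1.51 CPM in tumor WT (SD, n = 3 each; adjusted p = 0.4), and 11 ± 1.49 CPM in spleen cKO and 10.1 ± 2.1 CPM in spleen WT. Of the other 6 ligands with a row, none was above a mean of 0.289 CPM in any group.

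Their counts in tumor cKO against WT are to be read against all genes tested, of which 21.6% fell and 16.4% rose, with a median log2 change of −0.12. Of the 8 interferon receptor and kinase genes tested, 6 fell (75%) and 0 rose, with a median log2 change of −0.90. Jak1 fell by 0.92 ± 0.11 (SE, adjusted p = 8.06e-05), and Jak2 (log2 −1.16 ± 0.16), Ifnar2, a chain of the type I receptor (log2 −0.89 ± 0.14), Il10rb, a chain of the interferon lambda and interleukin-10 receptors (log2 −1.34 ± 0.21), Ifngr2 and Ifnar1 fell too. Of 6 interferon regulatory factors outside the members, 5 fell (83.3%) and 0 rose, with a median of −1.07. They were Irf1 (log2 −1.01 ± 0.13), Irf5 (log2 −1.13 ± 0.16), Irf8 (log2 −1.41 ± 0.26), Irf4 (log2 −1.21 ± 0.31) and Irf2 (log2 −0.77 ± 0.21). Of 8 negative regulators, 3 fell (37.5%), with a median of −0.46, among them Socs3 (log2 −0.97 ± 0.30) and Pias1 (log2 −0.60 ± 0.18), and 2 rose (25%), of which 1 was Irf2bp1 (log2 0.61 ± 0.19).

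Of 16 genes of nucleic acid sensing, 8 fell (50%) and 0 rose, with a median of −0.62. Unc93b1, the chaperone of endosomal Toll-like receptors, fell by 1.70 on the log2 scale (SE 0.24), Samhd1, a nucleotide hydrolase, by 1.45 (SE 0.21), Tlr8 by 3.47 (SE 0.70) and the adaptor gene Myd88 by 0.78 (SE 0.17). Of 64 further interferon-stimulated genes, 22 fell (34.4%) and 3 rose (4.69%), with a median of −0.49, against 21.6%, 16.4% and −0.12 over all genes. Shisa5 (log2 −1.27 ± 0.16), N4bp1 (log2 −1.20 ± 0.16) and Trafd1 (log2 −0.97 ± 0.18) fell, and Lgals9, which encodes galectin-9, rose (log2 1.60 ± 0.27). Of 26 genes induced by interferon gamma, 8 fell (30.8%) and 1 rose (3.85%), with a median of −0.39. The falls included Tapbp (log2 −1.28 ± 0.20), of the peptide-loading complex, Cd274, which encodes PD-L1 (log2 −1.21 ± 0.22), Psmb10 (log2 −0.65 ± 0.13) and Serpina3g (log2 −1.57 ± 0.35). In spleen, 0 genes of any of these 6 lists passed by edgeR, against 0.0297% of all genes. An unadjusted p under 0.05 was found for 1 sensing gene, 2 further interferon-stimulated genes and 1 gene induced by interferon gamma. The median log2 difference in spleen was 0.12 over the 64 further interferon-stimulated genes, against 0.42 over the members and 0.00 over all genes. It was 0.10 over the 26 genes induced by interferon gamma. Values above 0 made up 79.7% and 84.6% of these 2 lists, against 92.3% of the members. Several genes of the 6 lists, Irf8, Irf5, Tlr8 and Unc93b1 among them, are expressed by macrophages, whose markers fell in the same tumor cKO libraries. The part of that in the tumor changes was not tested.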

How the data were processed

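RNA of 12 samples labelled as NK cells was measured by bulk RNA sequencing, after TRIzol extraction, on an Illumina NovaSeq, per the labels' protocols. Reads were mapped with TopHat2 2.0.6 and the build was mm10 (GRCm38), per the submitters' processing notes. How reads were counted, with which strand setting and filters, was not given in the sources used here. Then the authors deposited whole-number counts per gene without normalization, and RPKM values, which matched those computed from the counts to a relative tolerance of 0.001 for 100% of values. Even numbers made up 68.8% to 73.3% of the counts from 1 to 49, as when both mates of a pair are counted, which makes the counting error larger than these numbers imply.

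From the counts, edgeR 4.0.16 in R 4.3.3 kept genes with filterByExpr, scaled totals with TMM factors and fitted a robust quasi-likelihood model with 1 mean per group over all 12 libraries (8 residual degrees of freedom, common dispersion 0.0801). Tests were two-sided F-tests with Benjamini-Hochberg adjustment over all 16831 genes tested, called under 0.05. Adjusted p-values are from edgeR where no tool is named. Alternatives were DESeq2 1.42.0, limma 3.58.1 (limma-trend on log2(RPKM + 0.1) or log2(RPKM + 1)), other scalings, no filter, the libraries compared only, a replicate block and leaving libraries out. The groups came from the labels, and no libraries of a group were duplicates of each other by a chi-square comparison of their counts.

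On data simulated for cKO against WT in tumor with 16210 genes, 48 to 50 genes were changed at each size. All genes had the same dispersion. Changes of −2 and 2 on the log2 scale were recovered in 97.9% and 98% of cases. Changes of −1 and 1 were recovered in 26.5% and 20.4%.

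The members, pathway lists and marker lists were chosen with earlier results of these data known. Values in every library are given for the 2 members of each class with the smallest p in tumor, the 6 with the smallest p in spleen, the 4 with the smallest p for the difference, and the 3 largest rises and falls among those called for tumor against spleen in WT. From each pathway list up to 4 genes with the smallest p in tumor are named. Shared exonic bases were found by comparing the exons that the count table lists for its genes, and promoters are from RefSeq. The knocked-out gene and 2 genes of the pathway lists are not reported here.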

Additional observations from a re-analysis of the deposited data

Results flagged for a closer look

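By the test of the difference itself, the cKO effects of 3 members differed between the tissues, each with the effect in tumor below that in spleen. Rsad2 differed by −1.92 ± 0.48 on the log2 scale (SE, adjusted p = 0.017 by edgeR, 3 libraries a group), or by −0.67 with limma-trend on log2(RPKM + 1) (adjusted p = 0.172), and its spleen groups did not overlap while its tumor groups did. Dhx58 differed by −1.47 ± 0.38 (adjusted p = 0.0184), and its groups did not overlap in either tissue, with cKO lower in tumor and higher in spleen. Irf9 differed by −1.07 ± 0.29 (adjusted p = 0.0226), with groups free of overlap in tumor alone. The Irf9 difference did not pass in 8 of 22 alternative settings. Among these were limma-trend on log2(RPKM + 0.1) with a filter (adjusted p = 0.054) or without (0.111), and on log2(RPKM + 1) (0.052). Dhx58 did not pass with limma-trend on log2(RPKM + 0.1) without a filter (0.0731).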

How the results depend on the processing

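Counts of members called for tumor against spleen stayed within 18 to 27 in WT and 20 to 26 in cKO over all settings, and the median of cKO against WT in spleen stayed between 0.24 and 0.54. With 1 library left out, the median of tumor against spleen lay between −0.53 and −0.11 in cKO. In spleen, the 0 calls of cKO against WT became 1 with DESeq2, 2 with the libraries compared only, 3 without a filter on low counts and 1 with tumor WT replicate 2 left out together with tumor cKO replicate 3. In tumor, the 7 calls became 1 with the libraries compared only, 2 without a composition factor, 2 with each limma-trend setting, and 2 with tumor cKO replicate 3 and tumor WT replicate 3 left out, an alternative chosen after seeing the data. Leaving out 1 library gave 1 to 8 calls in tumor and 0 in spleen. The 3 calls for the difference became 5 with DESeq2, 10 without a filter, 0 with limma-trend on log2(RPKM + 0.1) without a filter and 1 with limma-trend on log2(RPKM + 1), and 1 to 6 with 1 library left out.

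The tumor median of −0.18 turned to 0.03 with tumor WT replicate 2 left out together with tumor cKO replicate 3, to 0.03 with limma-trend on log2(RPKM + 0.1), with or without a filter, and to 0.02 with limma-trend on log2(RPKM + 1). With 1 library left out it lay between −0.37 and 0.07. The median of the difference, −0.61, moved to −0.30 with that same pair left out and to −0.81 without tumor cKO replicate 1, and that of tumor against spleen in WT, 0.39, moved to 0.14 with limma-trend on log2(RPKM + 1). Single members were followed over the settings only where they were named or called. Among those, tumor values that turned or reached 0.00 without passing, with 1 or 2 libraries left out, are given with their range over all settings. They were Ifit2 (−0.03 to 0.46), Isg20 (−0.05 to 0.60), Ifit3 (−0.54 to 0.00), Parp14 (−0.66 to 0.03) and Usp18 (−0.91 to 0.03). Of all 39 members, 14 tumor values lay above 0 with all libraries. It was 25 without tumor WT replicate 2 and tumor cKO replicate 3, and 21 without tumor cKO replicate 3 alone. The cause of these changes was not tested. Over all genes, calls in spleen ranged from 0 to 230 around 5, with the 230 found without a filter on low counts. With tumor cKO replicate 3 and tumor WT replicate 3 left out, those in tumor were 3736 in place of 6399 and those of the difference 1787 in place of 3072.

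Deviations of same-numbered cKO and WT libraries correlated at −0.09, −0.02 and 0.11 in tumor and at 0, 0.02 and 0.03 in spleen. With 3 libraries a group, these values cannot decide whether the replicate numbers pair the samples. Whether same-numbered tumor and spleen libraries stem from the same mouse was not checked, and the tests treated them as independent. With a replicate block, 9 members were called in tumor, 0 in spleen, 4 for the difference, and 22 and 24 for tumor against spleen in WT and cKO. In the data simulated for cKO against WT in tumor, most changes of 1 on the log2 scale were missed. There 48 to 50 genes were changed at each size, whereas 38.0% of all genes were called in the deposited tumor comparison. The Benjamini-Hochberg threshold was thus stricter in the simulation, so its recovery does not measure the power of the deposited tests. In the deposited data, members with changes of about that size passed, such as Gbp2 (−1.13) and Gbp7 (−1.04). Genes with few reads such as Ifi44 and Ifnb1 are limited by depth. In spleen WT the same holds for Rsad2, with 36, 18 and 12 counts, and Ifit1, with 18, 42 and 16.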
